A study of Mus musculus with 16 samples.

Results

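Complex I subunits were read as the genes of the deposited table whose mouse symbols start with mt-Nd, Ndufa, Ndufb, Ndufc, Ndufs or Ndufv, with the Ndufaf assembly factors left out. The rule found 44 of the 13430 genes listed, 7 encoded in mitochondrial DNA and 37 in the nucleus, and all 44 passed the filter on low values. RNA came from a slice of the mid kidney, 3 mm thick, of 16 female C57BL/6 mice aged 2 to 3 months, with 1 library per mouse. There were 4 groups of 4 mice: wild type on water, wild type on bicarbonate, IRR(-/-) on water and IRR(-/-) on bicarbonate. IRR(-/-) mice lack a working Insrr gene, which encodes a receptor kinase that senses alkaline pH. The bicarbonate groups drank 250 mM NaHCO3 at pH 8.5 for 7 days, and in all 4 groups food was withheld for 12 h before tissue collection. The labels name no litter, clone or batch for either genotype, and a p-value here measures the spread between these animals.

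Complex I, NADH:ubiquinone oxidoreductase, takes electrons from NADH, passes them along a chain of iron-sulfur clusters to ubiquinone and pumps protons across the inner mitochondrial membrane. Its N module, at the tip of the arm in the matrix, oxidises NADH, its Q module reduces ubiquinone, and its membrane arm pumps protons. The core subunits that carry out catalysis are split between genomes. The mt-Nd messages encode the core of the membrane arm, and nuclear genes encode the core of the N and Q modules as well as the accessory subunits that surround the core. Kidney tubules, above all the proximal tubule and the thick ascending limb, are rich in mitochondria that supply ATP for ion transport.

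Values are RPKM, reads scaled to gene length in kilobases and to library size, as the authors deposited them. The sources used here do not give the length and library size behind them, and depth is unknown. Summed over all genes, a library held from 1.36e+06 to 1.60e+06 RPKM in wild type and from 2.42e+06 to 2.93e+06 RPKM in IRR(-/-) mice, while its median gene lay between 8.44 and 8.92 RPKM in all 16. Insrr itself ranged from 4.2 to 6.73 RPKM in the 8 wild-type libraries and from 3.31 to 4.11 RPKM in the 8 IRR(-/-) libraries, a log2 difference of -0.69 on water (adjusted p = 0.00180) and -0.49 on bicarbonate (adjusted p = 0.0182, and 0.0520 or 0.0532 without IRR(-/-) replicate 2 or wild-type replicate 4). The sources used here do not give the part of the gene that was deleted, so these reads do not check the labels fully. Of the 12943 genes tested, 21.9% differed between genotypes on water (10.1% higher and 11.8% lower in IRR(-/-) mice) and 18.4% on bicarbonate (9.03% and 9.36%). The share of these calls that were higher, 46.0% on water and 49.1% on bicarbonate, was 27.5% and 36.9% when values were scaled to the genes that are not mitochondrially encoded. Markers of the proximal tubule, thick ascending limb, distal tubule, principal and intercalated cells and podocytes were present in all libraries, so the labelled tissue showed its defining genes. Wild-type bicarbonate replicate 3 had the lowest summed level of proximal tubule markers, 3982 RPKM. Kap, the most abundant of these markers by group mean, ranged from 742 to 9256 RPKM over the mice of that group.

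The mt-Nd genes lie on the small circular mitochondrial chromosome, where 6 of them are on the plus strand and mt-Nd6 is on the minus strand. Both ends shown here bear on how reads can be divided between messages. The end of mt-Nd4l and the start of mt-Nd4 share 7 bases, chrM:10167-10173, and the ends of mt-Nd5 and mt-Nd6 share 14 bases on opposite strands, chrM:13552-13565 (GRCm38). The lines give 45 bases of each message as annotated in GENCODE M21, 5′ to 3′, with the shared bases in capitals.
mt-Nd4l end: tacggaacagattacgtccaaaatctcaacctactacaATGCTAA
mt-Nd4 start: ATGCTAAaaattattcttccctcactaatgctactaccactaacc
mt-Nd5 end: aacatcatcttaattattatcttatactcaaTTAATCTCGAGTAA
mt-Nd6 end: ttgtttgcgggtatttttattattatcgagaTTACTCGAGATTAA
mt-Nd4l and mt-Nd4 are known to be carried on a single mature RNA, so a read there need not belong to one of them alone. Reads from mt-Nd5 and mt-Nd6 can be told apart within the shared bases only if the counting used strand, which the sources used here do not give.

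On water, all 7 mt-Nd messages were higher in IRR(-/-) than in wild-type mice, by a median log2 difference of 1.21 against -0.05 for all genes tested, whereas with quantile normalization mt-Nd1 turned to -0.09 and 2 of the 7, mt-Nd3 and mt-Nd6, passed. Quantile normalization gives genes of equal rank the same value in every library, and mt-Nd4l came out at a difference of 0 under it. The values of the groups did not overlap for any of the 7, where 23.8% of all genes tested did not overlap. On bicarbonate all 7 were higher too, by a median of 1.23 against -0.02 for all genes and without overlap, whereas with quantile normalization mt-Nd1 and mt-Nd4 turned to -0.03 and again only mt-Nd3 and mt-Nd6 passed. All 7 calls held on each drink with each of its 8 libraries left out in turn. In bulk tissue fewer cells of a type and less RNA per cell cannot be told apart.

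mt-Nd3, a small core subunit of the membrane arm (chrM:9459-9806), differed most between genotypes. It stood at 2925, 2739.7, 2108 and 1142 RPKM in wild-type mice on water and at 17568, 13046, 12600.3 and 14251 RPKM in IRR(-/-) mice on water. The lowest IRR(-/-) library was thus above the highest wild-type library by a wide margin, although the wild-type libraries also spread widely. By limma this is 2.76 ± 0.29 on the log2 scale (SE, adjusted p = 1.38e-05), a 6.80-fold higher level. On bicarbonate the values were 1928, 3017, 1845 and 1326 RPKM in wild type and 14637, 11133, 9972 and 8818 RPKM in IRR(-/-) mice. That difference was 2.49 ± 0.29 (adjusted p = 4.60e-05), again without overlap.

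mt-Nd6, the single complex I message of the minus strand, came next. On water it was 22003, 26292, 29149.9 and 23827 RPKM in wild type and 68312, 75721, 75473 and 65924 RPKM in IRR(-/-) mice. This is a log2 difference of 1.5 ± 0.08 (adjusted p = 1.65e-08). On bicarbonate it was 19391, 20364, 20823 and 18889.6 RPKM in wild type and 58189, 63538, 63091 and 63275 RPKM in IRR(-/-) mice, a difference of 1.64 ± 0.08 (adjusted p = 4.76e-09). On both drinks every IRR(-/-) library stood above every wild-type library.

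mt-Nd4 and mt-Nd2, which like mt-Nd5 encode antiporter-like proton channels, differed by close to the median of the 7. mt-Nd4 was 21358, 22242, 21353 and 20670.2 RPKM in wild type on water against 45386, 50502, 52136 and 51341 RPKM in IRR(-/-) mice. mt-Nd2 was 15044, 16146, 16921 and 16165 RPKM against 36929, 35681, 34999 and 41805 RPKM. The log2 differences on water were 1.22 ± 0.08 for mt-Nd4 (adjusted p = 1.13e-07) and 1.21 ± 0.09 for mt-Nd2 (adjusted p = 6.82e-07). On bicarbonate they were 1.24 ± 0.08 and 1.23 ± 0.09. The third of the antiporter-like subunits, mt-Nd5, differed less, with 10245, 11952, 13429.5 and 11904 RPKM in wild type and 20621, 20438, 19824 and 18757 RPKM in IRR(-/-) mice on water. Its log2 difference was 0.75 ± 0.08 on water (adjusted p = 1.06e-05) and 0.77 ± 0.08 on bicarbonate.

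mt-Nd1, which joins the membrane arm to the Q module, was 16108, 16417, 18869 and 17159 RPKM in wild type on water and 37954, 32105, 32978 and 41058 RPKM in IRR(-/-) mice. It differed by 1.07 ± 0.10 (log2) on water (adjusted p = 6.58e-06) and 1.03 ± 0.10 on bicarbonate (adjusted p = 1.35e-05). mt-Nd4l had the highest level of the 7 and the smallest log2 difference. On water it was 101236, 113972, 119987 and 100241 RPKM in wild type and 144938, 168223, 161361 and 162415 RPKM in IRR(-/-) mice, a difference of 0.55 ± 0.08 (adjusted p = 0.000158). This difference was -0.06 with the trend over transcript length and GC content removed. On bicarbonate it was 0.68 ± 0.08 (adjusted p = 3.78e-05), and 0.22 with the trend removed (adjusted p = 0.138).

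**Figure D1:**
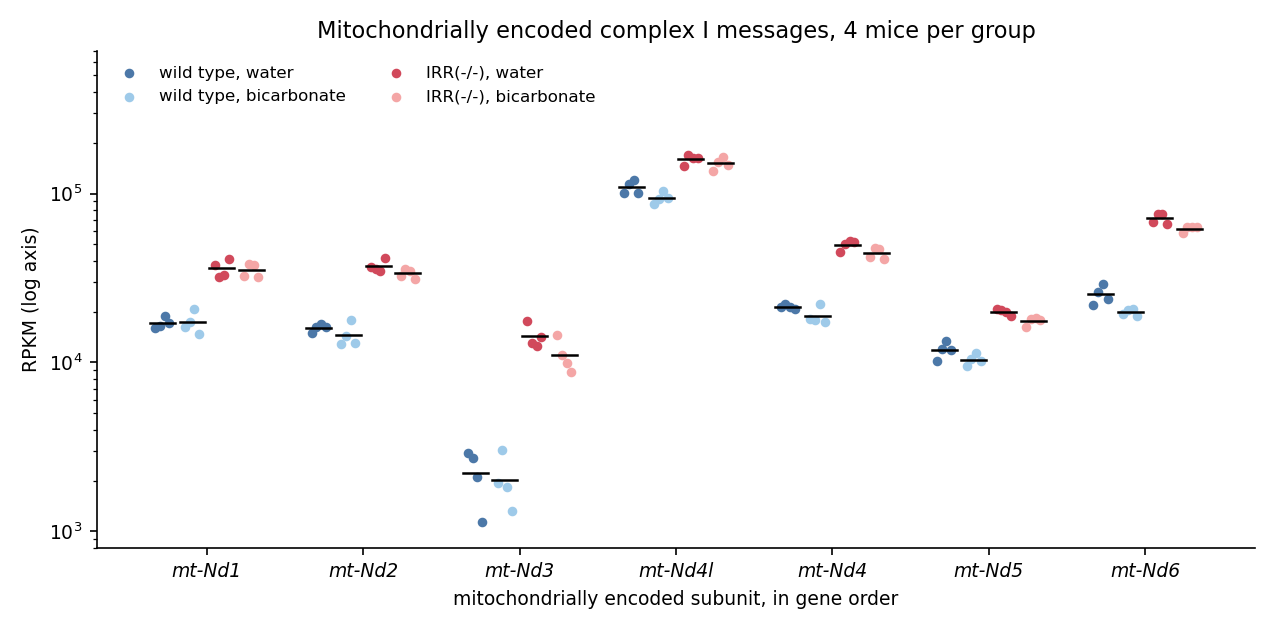
RPKM on a log axis of the 7 mitochondrially encoded complex I messages in each of 16 mice, in the 4 groups of genotype and drink, where points are libraries and bars are group means. In the deposited values the IRR(-/-) points lie above all wild-type points on the same drink for each message (with quantile normalization mt-Nd1 turned to -0.09 on water and to -0.03 on bicarbonate, and mt-Nd4 to -0.03 on bicarbonate), with the widest gap at mt-Nd3.

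The order of levels was alike in the groups. In wild type on water, mt-Nd4l led at 108859 ± 9702 RPKM (SD, n = 4), followed by mt-Nd6 at 25318 ± 3101, mt-Nd4 at 21406 ± 644, mt-Nd1 at 17138 ± 1235, mt-Nd2 at 16069 ± 773, mt-Nd5 at 11883 ± 1301 and mt-Nd3 at 2229 ± 804 RPKM. Neighbours whose libraries overlapped were mt-Nd6 with mt-Nd4 and mt-Nd1 with mt-Nd2. In IRR(-/-) mice on water the order was the same except that mt-Nd2, at 37353 ± 3073 RPKM, stood before mt-Nd1, at 36024 ± 4231 RPKM, and only this pair overlapped. mt-Nd4l, the shortest of the 7 at 297 nt, took 53.6 ± 0.836% of the summed mt-Nd RPKM in wild type on water and 41.0 ± 1.47% in IRR(-/-) mice on water.

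Because the differences were unequal, levels within the mitochondrial genome shifted against each other. The ratio of mt-Nd3 to mt-Co3, the nearest protein-coding gene upstream on the same strand, was 0.0535 ± 0.0188 in wild type on water and 0.0522 ± 0.0164 on bicarbonate, against 0.237 ± 0.0347 and 0.199 ± 0.0387 in IRR(-/-) mice (SD, n = 4 each). The ratio of mt-Nd4l to mt-Nd4, which share bases as printed above, was 5.08 ± 0.392 and 4.99 ± 0.346 in wild type against 3.20 ± 0.0991 and 3.40 ± 0.198 in IRR(-/-) mice. mt-Nd6 over mt-Nd5, the pair that meets tail to tail, was 2.13 ± 0.0882 and 1.92 ± 0.0907 against 3.58 ± 0.218 and 3.52 ± 0.0639. For all 3 ratios the 8 libraries of one genotype lay outside the range of the other. The ratio of mt-Nd1 to mt-Nd2 differed little, with 1.07 ± 0.0403, 1.19 ± 0.0587, 0.963 ± 0.0547 and 1.04 ± 0.0371 in the 4 groups in the same order. A ratio shows only that messages changed unequally, not which of them changed.

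The other 6 mitochondrially encoded messages were higher in IRR(-/-) mice as well, by a median log2 difference of 0.98 on water and 1.02 on bicarbonate and all past the threshold, while with quantile normalization mt-Co1, mt-Co3 and mt-Cytb turned negative on both drinks and mt-Co2 on water. With that setting mt-Co3 passed as lower by limma on water and on bicarbonate, at -0.46 on each (adjusted p = 7.22e-09 and 8.67e-09). mt-Cytb passed as lower on bicarbonate, at -0.16 (adjusted p = 0.00509). Genes of equal rank get the same value there, and mt-Atp8 came out at 0 on both drinks. These values thus compare ranks and cannot show whether the levels of such abundant messages fell. Deposited mt-Co3 means were 41410 RPKM in wild type and 60559 RPKM in IRR(-/-) mice on water. On bicarbonate they were 38589 and 55930 RPKM. In the deposited values the 6 ranged from mt-Co3 at 0.55 ± 0.07 to mt-Atp8 at 1.21 ± 0.06 on water. mt-Nd3 and mt-Nd6 lay above this range, mt-Nd2 and mt-Nd4 just above it at 1.21 and 1.22, and mt-Nd4l at its lower end. With the trend over transcript length and GC content removed, mt-Atp8 stood at 0.48 on water. The mt-Nd messages made up 18.1 ± 0.570% of the summed RPKM of all 13 messages in wild-type mice drinking water and 17.3 ± 0.474% in those drinking bicarbonate, against 16.3 ± 0.582% in IRR(-/-) mice on water and 16.2 ± 0.874% in IRR(-/-) mice on bicarbonate (SD, n = 4 each).

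Among the 37 nuclear subunits on water, 22 were higher and 4 lower in IRR(-/-) mice and 11 did not pass. These are 59.5% higher and 10.8% lower, against 10.1% and 11.8% of all genes tested. The nuclear median log2 difference was 0.37, against -0.05 for all genes. Scaled to the genes that are not mitochondrially encoded, 20 nuclear members were higher and 5 lower, and with quantile normalization 21 and 4. On bicarbonate 17 were higher and 5 lower, with 15 not passing and a median of 0.25 against -0.02 for all genes tested. These are 45.9% and 13.5%, against 9.03% and 9.36% of all genes. The groups did not overlap for 23 higher and 3 lower members on water, where 23.8% of all genes did not overlap. On bicarbonate, where 22.8% of all genes did not overlap, they did not for 13 higher and 5 lower members.

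The calls on the 2 drinks, which rest on different animals, covered much the same nuclear subunits. All 17 that were higher on bicarbonate were also higher on water, which is 77.3% of the 22 higher on water and 100% of the 17. The 4 lower on water were lower on bicarbonate too, and 0 members passed in opposite directions. Passing only on water were Ndufa2, Ndufab1, Ndufb11, Ndufb5 and Ndufb7, and only on bicarbonate Ndufa9. These 6 are not shown to differ between drinks, since 0 members passed the test of that difference, which is given below. Passing on neither drink were Ndufa13, Ndufa4l2, Ndufb3, Ndufb8, Ndufc2, Ndufs4, Ndufs5, Ndufs7, Ndufs8 and Ndufv2.

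**Figure D2:**
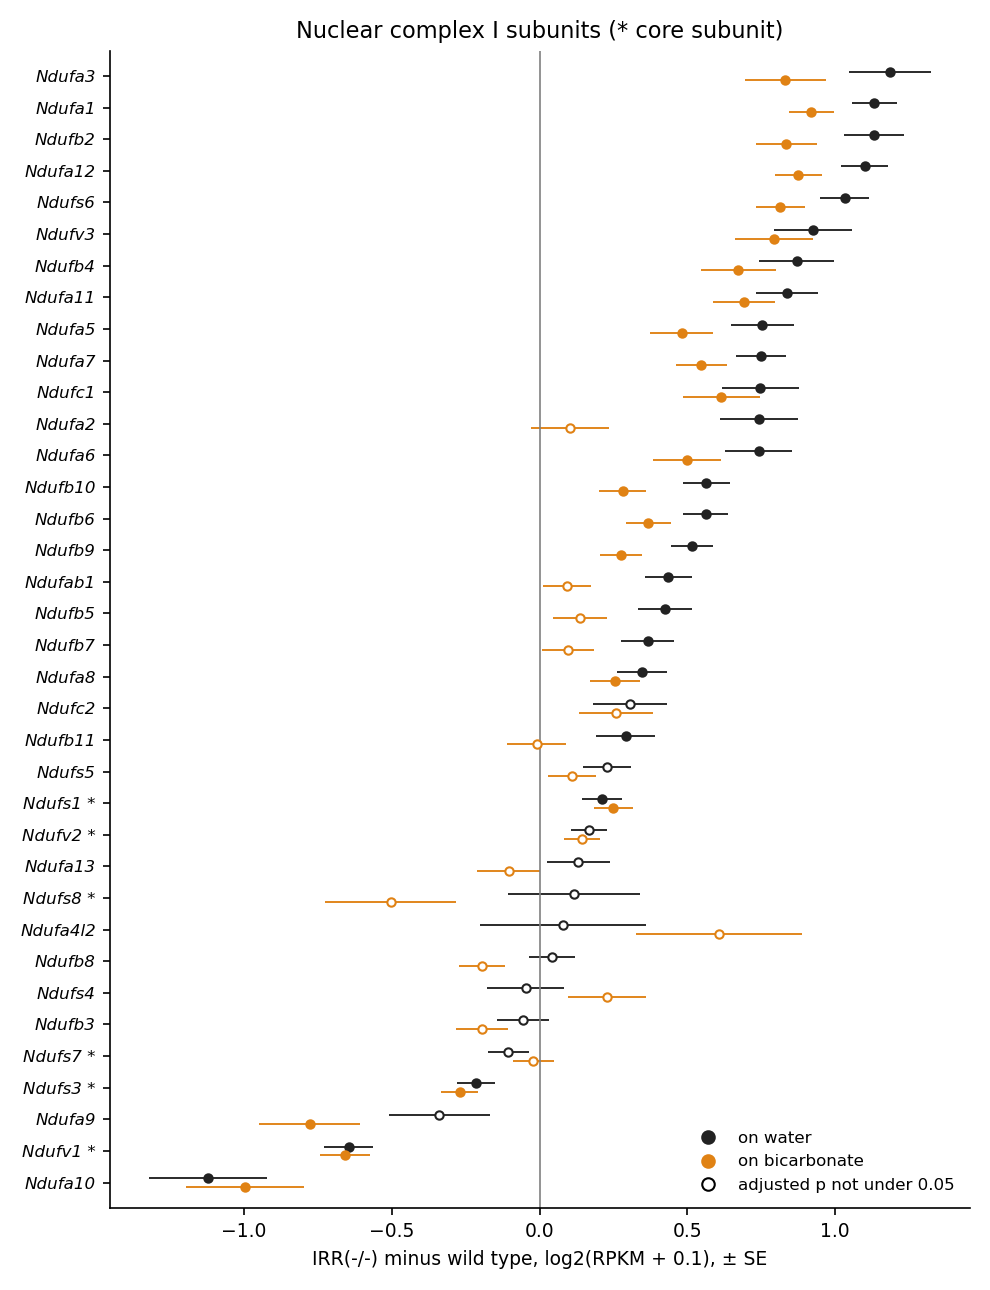
IRR(-/-) minus wild-type difference in log2(RPKM + 0.1), with its standard error, for nuclear subunits (all but 1 of the 37) on water and on bicarbonate, ordered by the value on water, where filled points passed the threshold. The accessory subunits Ndufa3, Ndufa1, Ndufb2, Ndufa12 and Ndufs6 stand highest on both drinks and Ndufa10, with the core subunit Ndufv1, stands lowest on water.

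The 5 nuclear members with the largest positive differences were accessory subunits on both drinks. Ndufa3, a single-span protein of the membrane arm, was 241, 159, 204 and 241 RPKM in wild type on water and 546, 379, 493 and 496 RPKM in IRR(-/-) mice. Its log2 difference was 1.19 ± 0.14 (adjusted p = 2.96e-05). On bicarbonate it was 267, 215, 220.0 and 241 RPKM against 482, 424, 377 and 397 RPKM, a difference of 0.83 ± 0.14. Ndufa1, another small protein of the membrane arm, was 137, 131, 137 and 154 RPKM in wild type on water against 296, 307, 311 and 309 RPKM in IRR(-/-) mice (1.13 ± 0.08, adjusted p = 1.88e-07). On bicarbonate it was 163, 148, 181 and 141 RPKM against 325, 298, 291 and 278 RPKM.

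Ndufb2, also of the membrane arm, went from 53.8, 39.3, 41.8 and 46.1 RPKM in wild type to 86.1, 93.3, 109 and 107 RPKM in IRR(-/-) mice on water (1.13 ± 0.10, adjusted p = 3.14e-06). Ndufa12 and Ndufs6 belong to the N module and are among the last subunits to join the complex. Ndufa12 was 202, 185, 166 and 194 RPKM against 349, 412, 413 and 429 RPKM on water (1.10 ± 0.08, adjusted p = 3.22e-07). Ndufs6 was 87.3, 88.0, 77.6 and 96.7 RPKM against 167, 174, 176 and 196 RPKM (1.03 ± 0.08, adjusted p = 1.14e-06). On bicarbonate the log2 differences were 0.92 for Ndufa1, 0.83 for Ndufb2, 0.87 for Ndufa12 and 0.81 for Ndufs6, and the groups again did not overlap.

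Ndufa10, an accessory subunit of the membrane arm with the fold of a nucleoside kinase, had the lowest difference. It was 178, 171, 327 and 276 RPKM in wild type on water and 104, 105, 99.1 and 114 RPKM in IRR(-/-) mice. The wild-type libraries spread widely and the IRR(-/-) libraries hardly at all, and the groups did not overlap. This gave a log2 difference of -1.12 ± 0.20 (adjusted p = 0.000950), and on bicarbonate, with 156, 138, 254 and 181 RPKM against 97.6, 86.6, 84.1 and 87.5 RPKM, it was -1.0 ± 0.20 (adjusted p = 0.00282). Ndufa9, which sits where the arms meet, was lower on bicarbonate, at 49.8, 58.0, 49.8 and 55.9 RPKM in wild type against 38.0, 34.2, 32.0 and 22.2 RPKM (-0.78 ± 0.17, adjusted p = 0.00555). On water its difference was -0.34 ± 0.17 (adjusted p = 0.177).

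The nuclear core subunits were counted apart from the accessory ones. Of 7 core subunits, 1 was higher and 3 lower on each drink (14.3% and 42.9%), with medians of -0.11 on water and -0.27 on bicarbonate. Of 30 accessory members, 21 were higher and 1 lower on water (70% and 3.33%, median 0.54). On bicarbonate 16 accessory members were higher and 2 lower (53.3% and 6.67%, median 0.28). Of all genes tested, 10.1% were higher and 11.8% lower on water, and 9.03% and 9.36% on bicarbonate. Ndufv1, which binds NADH and the flavin in the N module, was 103, 104, 97.9 and 114 RPKM in wild type on water and 60.5, 61.4, 68.2 and 79.0 RPKM in IRR(-/-) mice. It fell by 0.65 ± 0.08 on the log2 scale on water (adjusted p = 7.84e-05) and by 0.66 ± 0.08 on bicarbonate (adjusted p = 9.15e-05).

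Other core calls were small. Ndufs1, the large iron-sulfur subunit of the N module, was 200.2, 192, 168 and 207 RPKM in wild type on water and 219, 219, 212 and 237 RPKM in IRR(-/-) mice (0.21 ± 0.07, adjusted p = 0.0362), and 0.25 ± 0.07 higher on bicarbonate (adjusted p = 0.0183). Ndufs3, a structural core subunit of the Q module, was 176, 175, 165 and 173 RPKM against 149.9, 146, 145 and 152 RPKM on water (-0.21 ± 0.06, adjusted p = 0.0249), with -0.27 ± 0.06 on bicarbonate (adjusted p = 0.00853). Not passing on either drink were Ndufs7 (-0.11 and -0.02), Ndufs8 (0.12 and -0.50) and Ndufv2 (0.17 and 0.14), which carry iron-sulfur clusters. Ndufs8 was low and scattered, from 8.97 to 19.0 RPKM over the 8 libraries on water, and its value on water was -0.04 without wild-type water replicate 2 or IRR(-/-) water replicate 4.

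Several of these calls lay near the threshold and were lost with 1 library left out, whichever of several it was. On water, 29 of 33 members kept their call with each library left out. Ndufs1 lost its call without wild-type replicates 2 and 3 and IRR(-/-) replicates 1, 2 and 4 (0.15 to 0.22, adjusted p = 0.0606 to 0.107), and Ndufs3 without wild-type replicates 1 and 2 and IRR(-/-) replicates 2 and 3 (-0.21 to -0.20, adjusted p = 0.0567 to 0.0607). Ndufb11 lost it without any library except wild-type water replicate 1 (0.24 to 0.31, adjusted p = 0.0676 to 0.136).

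On bicarbonate, 26 of 29 members kept their call with each library left out. Ndufs1 lost it without wild-type bicarbonate replicate 1 or IRR(-/-) bicarbonate replicate 3 (0.23 and 0.22, adjusted p = 0.0561 and 0.0591). Ndufa8 lost it without any of 6 libraries, all but wild-type replicate 3 and IRR(-/-) replicate 4 (0.20 to 0.26, adjusted p = 0.0760 to 0.137). Ndufb10 lost it without wild-type replicates 1, 2 and 4 and IRR(-/-) replicates 1 and 3 (0.23 to 0.27, adjusted p = 0.0547 to 0.0678).

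By module, 5 of 8 nuclear N module members were higher and 1 lower on water (62.5% and 12.5%), and 4 and 1 on bicarbonate (50% and 12.5%). Of all genes tested, 10.1% were higher and 11.8% lower on water, and 9.03% and 9.36% on bicarbonate. The 5 nuclear Q module members had a median of -0.11 on water and -0.27 on bicarbonate, and Ndufs3 among them was lower on both drinks. Ndufa5, the accessory subunit of this list, was higher on both, at 0.75 ± 0.11 on water (adjusted p = 0.000159) and 0.48 ± 0.11 on bicarbonate (adjusted p = 0.00587). In the membrane arm 13 of 19 nuclear members were higher and 1 lower on water (68.4% and 5.26%), and 10 and 1 on bicarbonate (52.6% and 5.26%). The lists count nuclear members only, and a few accessory subunits belong to none of them.

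Levels of nuclear members spanned a wide range in each group. In wild type on water Ndufb8 led at 299 ± 27.7 RPKM, Ndufa6 stood at 288 ± 27.8 and Ndufv2 at 264 ± 11.2, while Ndufs8 had 12.96 ± 2.76, Ndufs4 10.3 ± 0.953 and Ndufa4l2 1.48 ± 0.549 RPKM (SD, n = 4 each). In IRR(-/-) mice on water Ndufa6 led at 479 ± 17.7 RPKM, with Ndufa3 at 479 ± 70.6 and Ndufa12 at 401 ± 35.4 RPKM, and the same 3 members were lowest. Ndufa4l2 is a relative of a cytochrome oxidase subunit that is known for its rise in low oxygen, and it is a member here by its name alone. The mouse genes Ndufa4 and Ndufb1 were not analysed here.

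Set side by side, the mitochondrial medians differed more than the nuclear ones. The median of the 7 mt-Nd messages was 17138 ± 1235 RPKM in wild-type mice drinking water, 17287 ± 2474 in those drinking bicarbonate, 37610 ± 3069 in IRR(-/-) mice on water and 35125 ± 3168 in IRR(-/-) mice on bicarbonate. The nuclear median was 120.3 ± 7.73, 114 ± 6.54, 147 ± 3.05 and 138 ± 6.04 RPKM in the same order. Their ratio was 143 ± 17.0, 152 ± 20.1, 255 ± 15.9 and 254 ± 22.3, from 132 to 174 over the wild-type libraries and from 235 to 284 over the IRR(-/-) libraries. No library overlapped with the other genotype in this ratio. The median log2 difference of mt-Nd messages exceeded that of nuclear members by 0.85 on water and 0.98 on bicarbonate. With quantile normalization this gap was -0.23 and -0.22. That setting gives genes of equal rank the same value, so it cannot show a change in level of messages that keep their rank. Under it the mt-Nd medians were 0.09 on water and 0.03 on bicarbonate, and the nuclear medians 0.32 and 0.25.

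**Figure D3:**
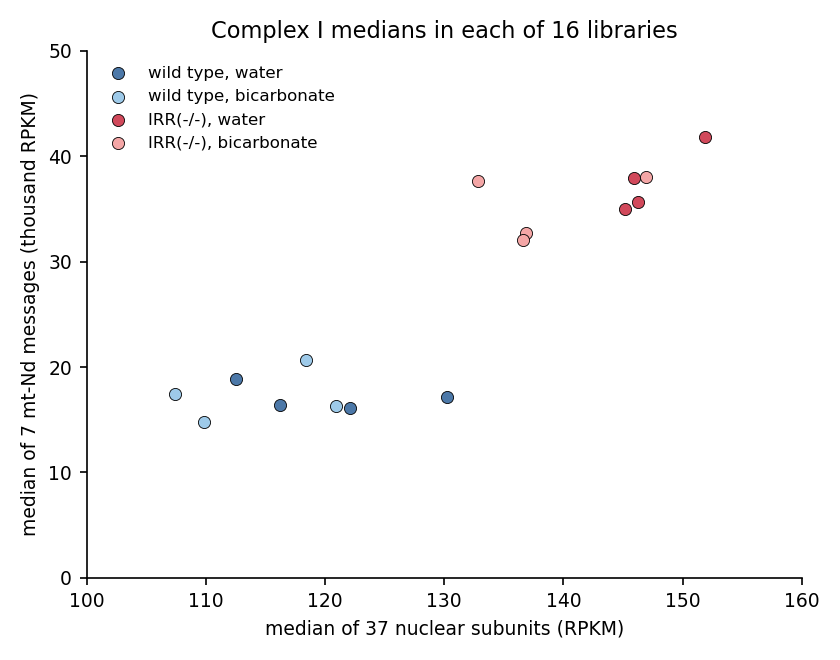
Median RPKM of the 7 mt-Nd messages (vertical) against the median RPKM of the 37 nuclear subunits (horizontal axis, which does not start at 0) in each of 16 libraries, coloured by group. IRR(-/-) libraries lie above and to the right of the wild-type libraries in the deposited values. With quantile normalization, which gives genes of equal rank the same value, the excess of the mt-Nd over the nuclear difference was -0.23 on water.

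Coding length moved with the nuclear differences. Across the 37 nuclear members, which share libraries and the same fit, Spearman's rho between coding length and the log2 difference was -0.57 on water and -0.57 on bicarbonate, against -0.07 and 0.04 across all genes with a coding length. The nuclear core subunits have longer coding sequences than most accessory ones, from 639 nt in Ndufs8 to 2184 nt in Ndufs1. Among members with a coding length of at most 500 nt, 16 of 21 were higher on water (76.2%, median 0.74). Of 1155 such genes tested, 28.2% were higher (median 0.15). By transcript length, 54.0% of 63 genes of 1 to 500 nt were higher on water (median 0.69). Of 666 genes of 501 to 1000 nt, 36.8% were higher (median 0.28), against 7.01% of 7928 genes of at least 2501 nt. Short genes in general were thus more often higher on water, which rho across all genes does not show. Of 20 nuclear members of 501 to 1000 nt, 14 were higher (70%, median 0.54). With coding length and GC trends removed, an alternative chosen after seeing the data, 21 nuclear members were higher and 5 lower on water and 18 and 7 on bicarbonate, and all 7 mt-Nd messages stayed past the threshold. The part of length in these differences was otherwise not tested.

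**Figure D4:**
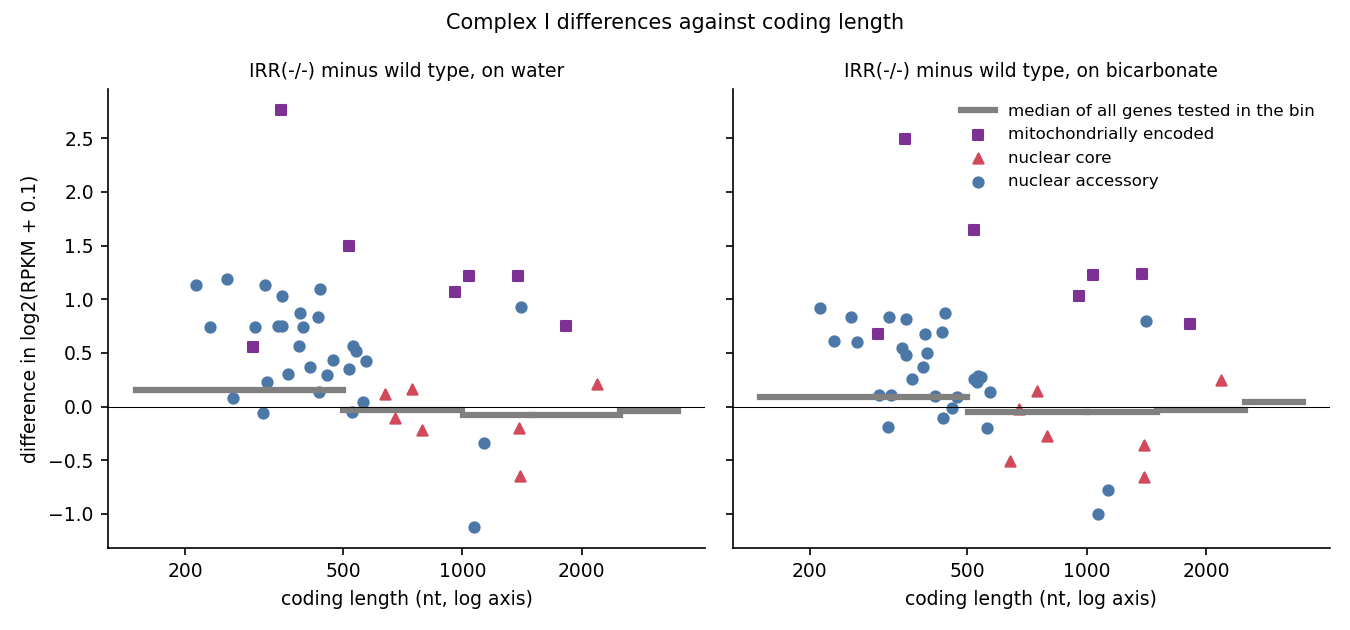
IRR(-/-) minus wild-type difference in log2(RPKM + 0.1) against coding length on a log axis for mitochondrially encoded, nuclear core and nuclear accessory subunits, on each drink, with grey bars for the median of all genes tested in a length bin. Most short accessory subunits lie above the grey bar and mt-Nd messages lie above it at all lengths in the deposited scale (with quantile normalization mt-Nd1 turned to -0.09 on water, and mt-Nd4l to -0.06 once a trend over transcript length and GC content was taken out), while Ndufa10 and several core subunits lie below it.

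Exons of 17 nuclear members overlap those of another annotated gene, 15 of them a protein-coding one, mostly on the opposite strand, and 3 members (Ndufb2, Ndufb8 and Ndufb9) overlap a protein-coding gene on the same strand. The annotation also names 4 pseudogenes after complex I subunits, Ndufa11b, Ndufab1-ps, Ndufb4c and Ndufs6b, so reads of Ndufa11, Ndufab1, Ndufb4 and Ndufs6 could be divided with a near copy. Their values are uncertain to that extent.

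Promoters of nuclear members were read for motifs of factors known for nuclear genes of respiration, since many of these members moved together. Of the 37, 32 have a promoter in the RefSeq table (GRCm38.p6), from 250 bases before to 50 after the start. Counted on both strands, AAGATGGC, letters bound by YY1, were in 7 of 32 (21.9%) against 2.75% of 32851 promoters in the table. GCGCATGCG, bound by NRF1, was in 2 (6.25%) against 1.75%, CCGGAAG, bound by GABPA and other ETS factors, in 4 (12.5%) against 8.86%, and AAGGTCA, bound by ESRRA, in 3 (9.38%) against 4.72%. Of the 19 members with a promoter that were higher on water, 3 held the YY1 letters, and of the 3 lower members 0 did. The members with the highest and the lowest difference on water are printed, with those letters in capitals where present.
Ndufa3 promoter, chr7:3617123-3617422, plus strand: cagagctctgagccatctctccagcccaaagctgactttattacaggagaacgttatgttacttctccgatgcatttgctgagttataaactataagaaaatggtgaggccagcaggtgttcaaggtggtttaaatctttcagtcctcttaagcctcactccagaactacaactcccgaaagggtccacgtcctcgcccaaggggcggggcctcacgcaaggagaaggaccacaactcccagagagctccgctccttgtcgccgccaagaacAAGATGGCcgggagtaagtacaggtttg
Ndufa10 promoter, chr1:92473709-92474008, minus strand: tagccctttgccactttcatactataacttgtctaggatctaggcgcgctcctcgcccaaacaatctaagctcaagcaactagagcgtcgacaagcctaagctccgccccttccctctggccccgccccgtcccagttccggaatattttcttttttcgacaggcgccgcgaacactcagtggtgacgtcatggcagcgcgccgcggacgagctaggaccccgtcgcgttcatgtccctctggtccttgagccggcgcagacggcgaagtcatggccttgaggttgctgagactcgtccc
Ndufa3 holds the YY1 letters once, just after its start, and Ndufa10 holds none of the 4 motifs in this window. A match is a run of letters and not a bound site.

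In response to bicarbonate, 0 of 44 members passed in wild type by limma, where 0.139% of all genes did, and 9 members had an unadjusted p under 0.05. The smallest belonged to mt-Nd6, whose libraries on water (22003 to 29149.9 RPKM) lay above those on bicarbonate (18889.6 to 20823 RPKM), with a log2 difference of -0.34 ± 0.08 (adjusted p = 0.0869). It was the single member without overlap, where 5.86% of all genes did not overlap. The values of mt-Nd messages were negative for 6 of 7, with a median of -0.19, the exception being mt-Nd1 at 0.0045. Next by p were Ndufa2 of the N module at 0.39 (adjusted p = 0.244) and Ndufs4, a late-joining N module subunit, at -0.37 (adjusted p = 0.257). Nuclear members were positive for 21 and negative for 16, with a median of 0.03. The mt-Nd median thus lay 0.21 below the nuclear one, a gap of -0.21, but -0.04 with quantile normalization and -0.05 once a trend over length and GC content was taken out.

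In IRR(-/-) mice 0 of 44 members passed after bicarbonate, where 0.0232% of all genes did, and 13 had an unadjusted p under 0.05 by limma. The values were negative for 43 of 44, with medians of -0.17 for mt-Nd and -0.17 for nuclear members against 0.01 for all genes, the exception being Ndufa4l2 at 0.05. Scaled to genes that are not mitochondrially encoded, mt-Nd1 and 4 nuclear members were positive, and the all-gene median was 0.07. With quantile normalization 2 mt-Nd and 4 nuclear members were positive. The smallest p belonged to Ndufb6, at 116, 121, 118 and 129.6 RPKM on water and 112, 98.8, 107 and 89.7 RPKM on bicarbonate (-0.25 ± 0.08, adjusted p = 0.376). Ndufa13 was at -0.29 (adjusted p = 0.499) and Ndufs5 at -0.22 (adjusted p = 0.507). The groups did not overlap for 9 members, all lower on bicarbonate (mt-Nd5, mt-Nd6 and 7 nuclear), where 5.66% of all genes did not overlap. Nuclear subunits of the other respiratory complexes were mostly negative in IRR(-/-) mice as well. These were 9 of 9 in complex III (median -0.17), 16 of 17 in ATP synthase (-0.15), 13 of 14 in complex IV (-0.12) and 4 of 4 in complex II (-0.16).

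**Figure D5:**
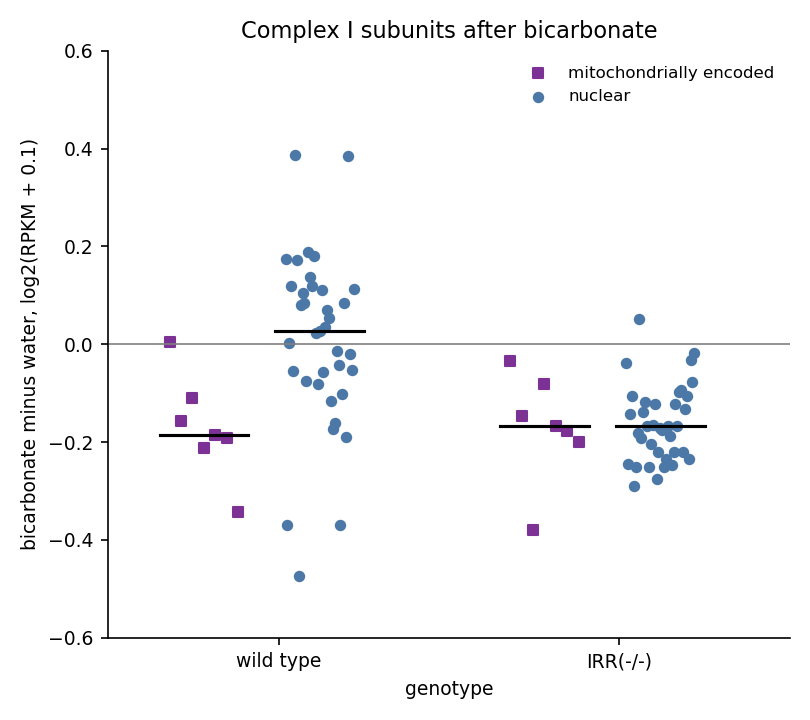
Bicarbonate minus water difference in log2(RPKM + 0.1) for each mitochondrially encoded and nuclear subunit in wild-type and in IRR(-/-) mice, where bars are medians and the sideways spread of points has no meaning. None of the 44 passed the threshold in either genotype; in IRR(-/-) mice 43 of 44 values are negative in the deposited scale, and mt-Nd1 and 4 nuclear members are positive when scaled to genes that are not mitochondrially encoded.

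The test of whether the response to bicarbonate differed between genotypes called 0 members and 0.0155% of all genes, with 8 members at an unadjusted p under 0.05 by limma, all nuclear. The nuclear values were negative for 32 of 37, with a median of -0.20, but for 26 with a median of -0.07 once a trend over length and GC content was taken out. The mt-Nd median was 0.02, and -0.07 with that trend or -0.14 with one over coding length and GC content taken out. Nuclear members with the smallest p were Ndufa2 at -0.64 ± 0.19 (adjusted p = 0.462), Ndufab1, the mitochondrial acyl carrier protein, at -0.34 ± 0.11 (adjusted p = 0.492), and Ndufb10 at -0.28 ± 0.11 (adjusted p = 0.565). Ndufa2 shows what such a value is made of. It was 67.4, 51.9, 42.6 and 57.5 RPKM in wild-type mice drinking water, 79.8, 69.5, 70.0 and 64.7 RPKM in those drinking bicarbonate, 99.4, 81.6, 87.9 and 94.3 RPKM in IRR(-/-) mice on water and 94.9, 75.3, 71.5 and 65.4 RPKM in IRR(-/-) mice on bicarbonate. The genotype groups were thus apart on water and overlapped on bicarbonate. This comparison uses all 4 groups, so it shares its libraries with each of the others.

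Other genes of respiration were read from lists of the same complexes. Of all genes tested, 21.9% were called on water (10.1% higher and 11.8% lower) and 18.4% on bicarbonate (9.03% and 9.36%). Nuclear subunits of ATP synthase were higher for 11 of 17 and lower for 1 on water, and for 8 and 1 on bicarbonate, with Atp5g3 at 0.94 and Atp5k at 0.98 on water and Atp5a1, the large catalytic subunit, at -0.47. Complex IV counted 9 higher and 1 lower of 14 on water and 4 and 2 on bicarbonate, with Cox7b at 1.19 and Cox7c at -0.90. Complex III counted 5 and 2 of 9, then 4 and 2 with a median of -0.10, with Uqcrh at 1.10 and Uqcrc2 at -0.44. In complex II, which has no mitochondrially encoded subunit, 0 of 4 were higher and Sdha was lower on water at -0.62, and 0 passed on bicarbonate by limma, with 0 at an unadjusted p under 0.05. Cytosolic ribosomal proteins, a list of short genes outside mitochondria, counted 17 higher and 2 lower of 27 on water and 7 and 5 on bicarbonate. The shares called on water and on bicarbonate were 70.6% and 52.9% for ATP synthase and 71.4% and 42.9% for complex IV. For complex III they were 77.8% and 66.7%, and for ribosomal proteins 70.4% and 44.4%. Complex II, at 25% on water, was near the share of all genes.

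The 18 assembly factors of complex I, which build it without staying in it, counted 2 higher and 3 lower on water and 1 and 2 on bicarbonate, with medians of -0.22 and -0.17. These are 27.8% and 16.7% of the list, near the 21.9% and 18.4% of all genes called. Dmac1 was higher (0.63 on water), and Tmem70 (-0.55) and Ndufaf4 (-0.43) were lower. The other 2 calls on water, Ndufaf2 and Foxred1, each ended with any of several libraries left out. Of 16 genes of mitochondrial DNA upkeep and transcription, 2 were higher on water (12.5%, against 21.9% of all genes called) and 1 on bicarbonate (6.25% against 18.4%), with Polrmt, the mitochondrial RNA polymerase, at 1.05 ± 0.18 on water (adjusted p = 0.000843) and 0.56 ± 0.18 on bicarbonate (adjusted p = 0.0451). The call on bicarbonate ended without wild-type replicate 3 or 4 or IRR(-/-) replicate 1, 3 or 4 (0.37 to 0.58, adjusted p = 0.0746 to 0.119). The second call on water, Mterf4 at 0.29, ended without wild-type replicate 1, 3 or 4 or IRR(-/-) replicate 1, 3 or 4 (adjusted p = 0.0531 to 0.104). Tfam, which packages mitochondrial DNA and helps start its transcription, was chosen for mention after its values were seen, and did not pass (0.20 and -0.06).

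Genes of mitochondrial RNA processing and stability counted 2 higher and 6 lower of 20 on water (40.0%, against 21.9% of all genes called) and 1 and 3 on bicarbonate (20% against 18.4%). Slirp and Lrpprc encode the partners of one RNA-binding complex that stabilises mitochondrial messages, and they differed in opposite directions. Slirp was 23.97 ± 2.94 RPKM in wild type and 57.2 ± 3.68 RPKM in IRR(-/-) mice on water (SD, n = 4 each), a log2 difference of 1.26 ± 0.12 (adjusted p = 4.41e-06). Lrpprc was 47.8 ± 2.70 against 35.3 ± 2.53 RPKM, a difference of -0.44 ± 0.07 (adjusted p = 0.000335). Of 12 regulators of mitochondrial biogenesis, Gabpb1 was lower on water (-0.48) and Ppargc1a, a coactivator of respiration genes, was higher on bicarbonate (0.35, adjusted p = 0.0158, and 0.0502 without wild-type replicate 1), and the others did not pass. In response to bicarbonate 0 members of any of these lists passed in either genotype, where the number at an unadjusted p under 0.05 by limma ran from 0 to 19 per list.

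Markers of other cells were read beside these results. Brown fat, which is rich in mitochondria, had 2 of 3 listed markers in the table, and their sum ran from 8.82 to 113 RPKM in wild-type mice drinking water, from 0.917 to 59.1 in those drinking bicarbonate, from 0.514 to 18.7 in IRR(-/-) mice on water and from 0 to 68.2 in IRR(-/-) mice on bicarbonate, with Ucp1 and Cidea both listed at 0 in a library of the last group. These ranges overlap between genotypes. The 12 proximal tubule markers summed to between 10561 and 16543 RPKM in wild type and between 12538 and 25316.5 RPKM in IRR(-/-) mice on water. On bicarbonate they summed to between 3982 and 12881 against 11795 and 17250.1 RPKM. Kap weighed most in the sums on water, at 5998 to 13113.5 against 8677 to 21497 RPKM. Of the 12, 3 were higher and 2 lower on water, with a median log2 difference of -0.04 (41.7% called, against 21.9% of all genes). On bicarbonate 1 was higher and 1 lower (16.7% against 18.4%). The 4 thick ascending limb markers summed to 1241 to 1446 against 945 to 1129 RPKM on water, without overlap. On bicarbonate the sums were 1106 to 1447 against 1064 to 1277 RPKM. Umod weighed most in these sums, at 779 to 955 against 531 to 645 RPKM on water. Slc12a1 overlapped there, at 344 to 430 against 315 to 398 RPKM. On each drink 1 of the 4 was lower and 3 did not pass (25% called, against 21.9% of all genes on water and 18.4% on bicarbonate). Blood markers, 4 globin genes and Alas2, did not separate the genotypes on water, with sums of 501 to 1572 against 373 to 2068 RPKM. On bicarbonate their sums were 811 to 1550 RPKM in wild type and 234 to 612 RPKM in IRR(-/-) mice, without overlap. All 5 had negative differences there (median -1.40), and 2 passed, Alas2 at -1.02 (adjusted p = 0.0429) and Hba-a2, which has a near-identical copy, at -1.89 (adjusted p = 0.0132). The part of blood content and tubule composition in the complex I differences was not tested.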

How the data were processed

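Total RNA of kidney slices from 16 mice was sequenced on an Illumina instrument, 1 library per mouse, in 4 groups of 4. The authors deposited 1 table of RPKM values for 13430 genes and 16 libraries. Per the submitters' processing notes, Salmon 1.5.2 and edgeR 3.34.0 were used, and GRCm39 and mm10 are named as builds without a role. The sources used here do not give the gene length, the library size or the use of strand behind each RPKM. The deposited RPKM did not resolve into whole reads, so depth is unknown and no interval or floor for counting error is given. RPKM divides by length and by library size, so a large change in a few very abundant messages shifts all others.

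All gene IDs matched GENCODE M21 (GRCm38), which gave symbols, positions, lengths and the mitochondrial reading frames, and RefSeq promoters (GRCm38.p6) gave the printed promoter windows. Genes with at least 0.5 RPKM in at least 4 libraries were kept, which left 12943 and set aside 487. limma 3.58.1 in R 4.3.3 was fitted once on log2(RPKM + 0.1) for the 4 group means, with 12 residual degrees of freedom, a mean-variance trend and robust moderation. Tests were two-sided, and p-values were adjusted by Benjamini-Hochberg over all genes tested within each comparison, with a threshold of 0.05. Fold changes are on the log2(RPKM + 0.1) scale, which understates changes of low genes. The fit was tested on simulated data with seeded changes, most of the larger of which it called. Groups were called not overlapping where every library of one lay above every library of the other.

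Complex I members and the other lists were chosen with earlier results of these data known. Values were named by rule: all mt-Nd members, the 7 nuclear core subunits, the 5 highest and 5 lowest passing nuclear members per comparison (or the 3 smallest p where fewer than 3 passed), the other mitochondrial messages, up to 3 passing genes of each other list, and Insrr. 1 nuclear core subunit enters the counts, medians and fits, and its own values are not reported here. Other subunits are named where a count, a left-out library or a motif turns on them. Alternatives were 2 other pseudocounts, no filter and a stricter filter, median-of-ratios scaling, scaling to genes that are not mitochondrially encoded, quantile normalization, removal of length and GC trends, fits of only the groups compared, no trend or robust fitting, a replicate block and each library left out. Removal of coding length trends was added after seeing the data. Any 2 libraries of a group shared 33 to 60 exactly equal values of 13430, so none was a copy of another. Replicate numbers name animals within a group and are not used to pair them.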

Additional observations from a re-analysis of the deposited data

Results flagged for a closer look

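A library was marked where its gap to the nearest of the other 3 in its group, as a share of the range of the group, was above Dixon's 95% critical value for 4 samples. This held for 6 of 176 combinations of a member and a group, and chance marks about 1 in 20. Wild-type bicarbonate replicate 3 was high in 3 of the 6: Ndufv3 was 164 RPKM against 136 to 137 in the other 3 mice, Ndufb7 was 86.4 against 70.2 to 72.3, and mt-Nd4 was 22212 against 17367 to 18131. This library also had the lowest sum of proximal tubule markers, 3982 RPKM, where Kap ranged from 742 to 9256 RPKM over its group. Whether that bears on these values was not tested. In wild-type bicarbonate replicate 4, Ndufa7 was low at 104 RPKM, where the other 3 mice had 116 to 117. Ndufc1 was 286 RPKM in IRR(-/-) water replicate 4 against 234 to 242. mt-Nd6 was 58189 RPKM in IRR(-/-) bicarbonate replicate 1 against 63091 to 63538.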

How the results depend on the processing

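Between genotypes 33 members were called on water and 29 on bicarbonate, and the alternatives called 27 to 33 and 24 to 32, members gained included, the fewest with quantile normalization on both drinks. That setting gives genes of equal rank the same value, and it turned mt-Nd1 to -0.090 on water and to -0.030 on bicarbonate, and mt-Nd4 to -0.032 on bicarbonate. It also turned the gap between mt-Nd and nuclear medians to -0.23 on water and -0.22 on bicarbonate, and it moved the gap after bicarbonate in wild type to -0.037. Removing length and GC trends turned mt-Nd4l to -0.060 and Ndufs8 to -0.027 on water. It moved the gap after bicarbonate in wild type to -0.0523 and that of the genotype difference in response from 0.22 to 0.0021. With coding length the 4 gaps were -0.028 (bicarbonate in wild type), 1.14 (genotype on water), 1.12 (genotype on bicarbonate) and -0.041 (difference in response), and the cause was not tested.

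Over all genes, the 18 called after bicarbonate in wild type became 7 with scaling to genes that are not mitochondrially encoded, 34 with quantile normalization, 10 without length and GC trends, 5 without coding length trends, 5 with only the groups compared, 2 with the replicate block, and 2 to 82 without 1 library (82 without wild-type bicarbonate replicate 4). The 2 called for the difference in response became 1 with a pseudocount of 1, 0 with 0.01, 0 with the stricter filter, 4 without length and GC trends, 4 without trend or robust fitting, and 1 to 5 without 1 library. Without 1 library, Ndufs8 on water ranged from -0.039 to 0.32 and Ndufs7 on bicarbonate from -0.051 to 0.015.

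Same-numbered animals did not deviate together (correlations of -0.0975 to 0.105 over pairs of groups), so the replicate block pairs nothing. With it 31 members were called on water, with Ndufs1 among those lost, and 28 on bicarbonate, without Ndufa8. Fits of only the groups compared do not apply to the difference in response, which needs all 4. Depth is unknown, 4 animals per group limit the precision, and members at a few RPKM, such as Ndufa4l2, are the least certain.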
